A study of Rattus norvegicus with 16 samples.

Results

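The genes described here take part in the cell's response to osmotic change, and they were followed in the gustatory cortex of thirsty rats that had just drunk. They were chosen by name: Nfat5, Slc5a3, Slc6a6, Slc6a12, Slc38a2, Aqp1, Aqp4, Trpv4 and Wnk1. Of these 9 genes, 7 were measured by 8 probe sets of their own, out of 28826 probe sets on the array, and 15209 probe sets paired with 1 gene were tested. Wnk1 had 2 probe sets. Slc6a12 had no entry in the array annotation used here, and Trpv4 stood only on a probe set that it shares with Trpv1.

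The 16 samples were total RNA from the gustatory cortex of male rats, labelled as 2 months old, with 1 array per rat. All rats, controls included, had been water restricted for 3 days, and each then drank either water or the new taste, 0.1% saccharin, before the cortex was taken 1 h or 3 h later. This gave 4 groups of 4 arrays, called saccharin 1 h, saccharin 3 h, water 1 h and water 3 h. No genotype differed between the groups. No rats killed before drinking were analysed here, so the level of these genes in the water-restricted state is not known and every change over time is a difference between 1 h and 3 h. The 3 h arrays carry the numbers C365 to C372 and the 1 h arrays C373 to C380, so the order in which arrays were numbered and the time after drinking cannot be told apart.

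Values are log2 expression per probe set, so a difference of 1 means 2-fold. The arrays were alike in scale. Median log2 values lay between 5.08 and 5.16, and the Pearson correlation across probe sets was 0.994 to 0.997 over the 120 pairs of arrays, none of which held identical values. Markers of brain cells were bright. Of the measured neuron markers 7 of 7 lay at or above the 95th percentile of all probe sets, and 5 of 8 astrocyte markers lay above the 90th. These markers do not show which brain region was taken. Markers of the choroid plexus and ependyma were dim, and 1 of 6 lay above the median probe set. The choroid plexus is the tissue with the densest Aqp1 in the brain. The 11 markers of leptomeninges and fibroblasts all read higher at 1 h than at 3 h, by a median of 0.29 on the log2 scale, and these values are given again beside Aqp1. In bulk tissue such as this, fewer cells of a type and less RNA per cell cannot be told apart.

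When the fluid around a cell becomes more concentrated, water leaves the cell and its ions are crowded. The transcription factor NFAT5 then raises genes that let the cell gather small organic osmolytes in place of salt, among them the transporters of myo-inositol (Slc5a3), taurine (Slc6a6) and betaine (Slc6a12). Slc38a2 carries neutral amino acids and is raised both by hypertonic medium and by amino acid starvation. Aquaporins are the pores through which water itself moves, with AQP4 at the end feet of astrocytes around vessels. TRPV4 is a cation channel opened by cell swelling, and WNK1 is a kinase that senses chloride and cell volume and controls cation-chloride cotransport.

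Promoter windows of the 3 genes with the smallest p-values over time are shown first, since these are the genes on which the account turns. The RefSeq table (assembly GRCr8) had a window of 250 bases before to 50 bases after the start for 8 of the 9 genes, and the missing entry was Nfat5. The motifs searched were the NFAT5 core TGGAAA, the longer tonicity enhancer consensus that contains it, and the cAMP-response half-site TGACG, each on both strands. Capitals mark a match to the core or to the half-site. The Slc38a2 window is chr7:129742570-129742869 on the minus strand, the Aqp1 window chr4:85812534-85812833 on the plus strand and the Slc6a6 window chr4:125752252-125752551 on the plus strand, each written 5′ to 3′ along the gene.
Slc38a2: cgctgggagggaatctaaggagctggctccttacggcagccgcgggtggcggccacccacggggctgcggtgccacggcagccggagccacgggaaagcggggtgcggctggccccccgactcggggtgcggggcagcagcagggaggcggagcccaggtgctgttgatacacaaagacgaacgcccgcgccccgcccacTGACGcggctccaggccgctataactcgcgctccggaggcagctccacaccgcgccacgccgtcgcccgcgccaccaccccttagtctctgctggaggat
Aqp1: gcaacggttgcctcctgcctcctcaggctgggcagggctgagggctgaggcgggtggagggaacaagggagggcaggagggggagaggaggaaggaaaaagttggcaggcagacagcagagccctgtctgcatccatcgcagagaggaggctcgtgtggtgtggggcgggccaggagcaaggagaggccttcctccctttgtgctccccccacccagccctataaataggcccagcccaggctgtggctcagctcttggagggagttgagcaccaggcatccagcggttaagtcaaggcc
Slc6a6: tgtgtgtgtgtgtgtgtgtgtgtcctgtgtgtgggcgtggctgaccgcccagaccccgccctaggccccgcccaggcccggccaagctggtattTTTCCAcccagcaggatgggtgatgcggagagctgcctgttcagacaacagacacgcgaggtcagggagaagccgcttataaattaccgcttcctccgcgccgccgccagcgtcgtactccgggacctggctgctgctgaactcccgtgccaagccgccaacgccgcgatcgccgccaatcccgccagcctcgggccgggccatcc

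The Slc6a6 window held the NFAT5 core on the opposite strand, at -156 to -151 from the start, inside a match to the longer consensus at -161 to -151. The core alone is common, as 22.7% of 33469 promoter windows held it, while the longer consensus was found in 6.0%. The Slc38a2 window held a cAMP-response half-site at -50 to -46, a motif present in 21.2% of windows. In Aqp1 none of these letters occurred in the window. Among the other genes, Aqp4 held the core 3 times over 2 windows, 1 of them inside the consensus, and Trpv4 held the half-site, while Slc5a3, Slc6a12 and Wnk1 held no match. A match is a string of letters and not a measured binding site. A window without a match says nothing about sequence outside that window.

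**Figure D1:**
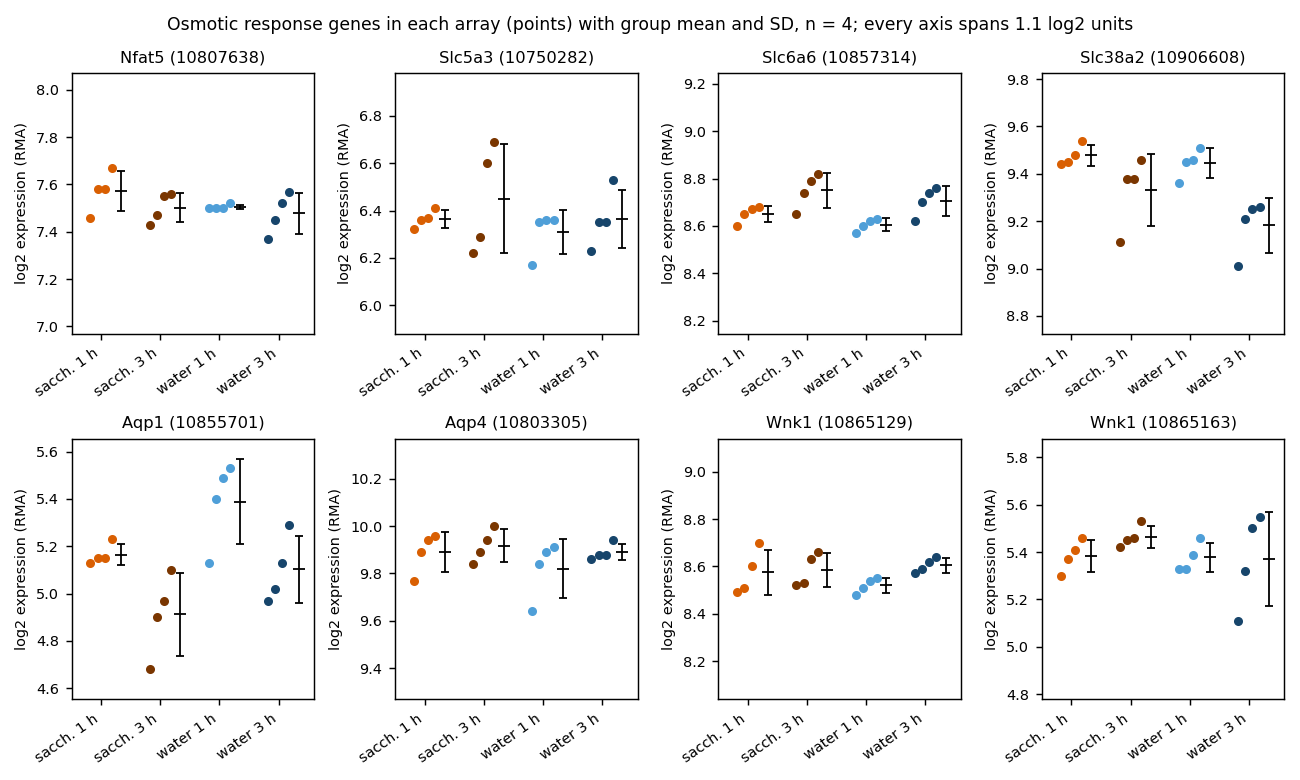
Log2 expression of the 8 probe sets (vertical axes, all of the same span) in the 4 groups, with 1 point per array and the group mean ± SD (n = 4) beside the points. Slc38a2 was lower in the water 3 h arrays than in all water 1 h arrays, Aqp1 was lower in the saccharin 3 h arrays than in all saccharin 1 h arrays.

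None of the 8 probe sets passed an adjusted p of 0.05 in any of 7 comparisons of time and taste. Of the 7, saccharin against water averaged over both times was added after the data were seen. Two-sided tests are from limma, with the p-values adjusted over all 15209 tested probe sets by the Benjamini-Hochberg method. Averaged over both tastes, 1.01% of all tested probe sets differed between 1 h and 3 h at that threshold. The share was 0.348% for time after saccharin and 0.125% for time after water, and it was 0% for taste at 1 h, at 3 h and averaged over both times, and for the interaction of time with taste. At an unadjusted p under 0.05, 3 of the 8 probe sets passed for time averaged over tastes, against 12.0% of all probe sets. These were Aqp1 and Slc38a2, higher at 1 h, and Slc6a6, higher at 3 h. In the same way 2 passed after saccharin, against 7.98%, and 2 after water, against 7.23%. The comparisons share arrays, so these counts do not add up as separate evidence. As a description, the median difference of the 8 was -0.04, and that of all tested probe sets was -0.00.

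Slc38a2 (probe set 10906608), the carrier of neutral amino acids also known as SNAT2, read higher 1 h than 3 h after drinking by 0.20 ± 0.05 on the log2 scale (SE), a 1.15-fold difference with a 95% interval of 0.10 to 0.31. Its adjusted p by limma was 0.0604, just outside the threshold. After water the 1 h arrays read 9.36, 9.45, 9.46 and 9.51 and the 3 h arrays 9.01, 9.21, 9.25 and 9.26. These groups did not overlap, with every 1 h array above every 3 h array. After saccharin the 1 h arrays read 9.44, 9.45, 9.48 and 9.54 and the 3 h arrays 9.11, 9.38, 9.38 and 9.46. Here array C368, the highest at 3 h, lay within the range of the 1 h arrays. The difference was 0.26 ± 0.07 after water (SE, adjusted p = 0.277) and 0.15 ± 0.07 after saccharin (SE, adjusted p = 0.627). Across all tested probe sets, 4.35% had groups that did not overlap between times after water, and 2 of the 8 probe sets here did, Slc38a2 and the brighter Wnk1 probe set.

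The order of the Slc38a2 group means was saccharin 1 h, water 1 h, saccharin 3 h and water 3 h, at 9.48 ± 0.04, 9.44 ± 0.06, 9.33 ± 0.16 and 9.18 ± 0.12 (SD, n = 4 each). No neighbours in that order were farther apart than the larger of their SDs. The low water 3 h array was C365 and the low saccharin 3 h array was C372. In 5 of 22 alternative settings Slc38a2 passed the threshold, with adjusted p-values over the 22 from 0.018 to 0.13. Leaving out saccharin 3 h array C368 was 1 of them and gave 0.0387. Without the low saccharin 3 h array C372 the difference after saccharin was 0.07 in place of 0.15, and the average over tastes was 0.17, its lowest value with an array left out.

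Slc6a6 (10857314), the taurine transporter, read higher at 3 h. Its saccharin 1 h arrays read 8.60, 8.65, 8.67 and 8.68 and its saccharin 3 h arrays 8.65, 8.74, 8.79 and 8.82. Its water 1 h arrays read 8.57, 8.60, 8.62 and 8.63 and its water 3 h arrays 8.62, 8.70, 8.74 and 8.76. In each taste the lowest 3 h array fell among the 1 h arrays and the other 3 lay above all of them. The difference, 1 h minus 3 h, was -0.10 ± 0.03 averaged over tastes (SE, interval -0.17 to -0.03), and it was equal in size after saccharin and after water at -0.10 in both. The adjusted p was 0.20 for the average.

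Slc5a3 (10750282), the myo-inositol transporter and the classical NFAT5 target of this set, showed no common shift. After saccharin its 1 h arrays lay close together at 6.32, 6.36, 6.37 and 6.41, and its 3 h arrays spread from 6.22 and 6.29 to 6.60 and 6.69. The 3 h arrays thus lay on both sides of the 1 h arrays, with C366 and C368 high and C372 and C370 low. After water the 1 h arrays read 6.17, 6.35, 6.36 and 6.36 and the 3 h arrays 6.23, 6.35, 6.35 and 6.53. The difference over both tastes was -0.07 ± 0.06 (SE, adjusted p = 0.730), with an interval of -0.20 to 0.06. The SD of the saccharin 3 h group, 0.23, was the largest of any group of the 8 probe sets.

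Nfat5 (10807638), the tonicity-responsive factor itself, was among the steadiest. The saccharin 1 h arrays read 7.46, 7.58, 7.58 and 7.67 and the water 1 h arrays 7.50, 7.50, 7.50 and 7.52. The saccharin 3 h arrays read 7.43, 7.47, 7.55 and 7.56 and the water 3 h arrays 7.37, 7.45, 7.52 and 7.57. All 4 groups overlapped. Averaged over tastes the difference was 0.05 ± 0.04 (SE, adjusted p = 0.687), with an interval of -0.03 to 0.13. NFAT5 is also controlled by its movement into the nucleus, which arrays do not measure.

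Aqp1 (10855701), a water channel of red blood cells, choroid plexus epithelium and some endothelia, had the largest difference over time of the 8 probe sets. Its water 1 h arrays read 5.13, 5.40, 5.49 and 5.53 and its water 3 h arrays 4.97, 5.02, 5.13 and 5.29. Its saccharin 1 h arrays read 5.13, 5.15, 5.15 and 5.23 and its saccharin 3 h arrays 4.68, 4.90, 4.97 and 5.10. After saccharin every 1 h array was above every 3 h array, as held for 4.78% of all probe sets in that comparison, and 1 of the 8 here. After water array C376 at 1 h fell among the 3 h arrays. Aqp1 read higher at 1 h by 0.27 ± 0.07 on the log2 scale (SE, interval 0.13 to 0.41), 1.21-fold, with an adjusted p of 0.0573. The differences within tastes were 0.25 ± 0.09 after saccharin (SE, adjusted p = 0.444) and 0.29 ± 0.09 after water (SE, adjusted p = 0.425).

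The Aqp1 difference passed the threshold in 5 of 22 alternative settings, with adjusted p-values over the 22 from 0.0164 to 0.121. Dropping C376 (water, 1 h) gave 0.0164, dropping C371 (water, 3 h) 0.0313 and dropping C372 (saccharin, 3 h) 0.0342. The Aqp1 probe set was dim, at a mean of 5.14 beside a median of 5.11 over all probe sets.

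Aqp1 also read lower after saccharin than after water at both times, by 0.22 ± 0.09 at 1 h and 0.19 ± 0.09 at 3 h (SE). Neither difference passed after adjustment (adjusted p = 1 and 0.999). With an array left out the 3 h difference ran from -0.25 without C372 to -0.11 without C370. The comparison averaged over both times was added after the data were seen. Averaged over both times the difference was -0.21 ± 0.07 (SE, interval -0.34 to -0.07), with an unadjusted p of 0.00547 and an adjusted p of 1. The 1 h difference had an unadjusted p of 0.0261, and the groups overlapped because water array C376 read 5.13. Its group order was water 1 h (5.39 ± 0.18), saccharin 1 h (5.17 ± 0.05), water 3 h (5.10 ± 0.14) and saccharin 3 h (4.91 ± 0.17; SD, n = 4). The first gap and the last gap in that order exceeded the larger SD of the pair, and the middle one did not.

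Among markers of other cells, those of blood and of leptomeninges read higher at 1 h, as Aqp1 did, and none passed the adjusted threshold. Hbb, the beta chain of haemoglobin and a marker of blood left in the tissue, averaged 9.36 ± 0.36 at saccharin 1 h, 9.61 ± 0.17 at water 1 h, 9.02 ± 0.35 at saccharin 3 h and 9.23 ± 0.14 at water 3 h (SD, n = 4). Its difference over time was 0.36 (adjusted p = 0.177). Only 2 of 5 erythroid markers were measured, Hbb and Alas2, and both differences between 1 h and 3 h were positive. Both were also lower after saccharin than after water at each time, with medians of -0.24 at 1 h and -0.22 at 3 h. Array by array the match differed between groups. In the water 1 h group Aqp1 and Hbb ran in the same order, from C376 (5.13 and 9.38) to C374 (5.53 and 9.78). Saccharin 3 h array C370 had the lowest Aqp1 (4.68) and the highest Hbb of its group (9.55). Saccharin 1 h array C377 (5.23 and 9.04) and water 3 h array C371 (5.29 and 9.02) had the highest Aqp1 and the lowest Hbb of their groups.

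The 11 leptomeningeal and fibroblast markers all read higher at 1 h, and none passed the adjusted threshold. At an unadjusted p under 0.05 by limma, 9 of the 11 passed for time averaged over tastes, against 12.0% of all probe sets. After saccharin 10 passed, against 7.98%, and after water 3, against 7.23%. The lists were chosen with earlier results known and the comparisons share arrays, so these counts are a description. The log2 of the summed level ran from 10.20 to 10.52 at saccharin 1 h and from 10.20 to 10.58 at water 1 h. At 3 h its range was 9.55 to 10.31 for saccharin and 9.87 to 10.32 for water. Col1a1, a collagen chain of these cells, differed by 0.34 (adjusted p = 0.0617). The 6 choroid plexus and ependymal markers had a median difference of -0.01, and the 9 endothelial and mural markers one of -0.02. Of 5 microglia markers 1 read higher at 1 h, and their median was -0.08. The part of blood and leptomeninges in the Aqp1 difference was not tested.

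**Figure D2:**
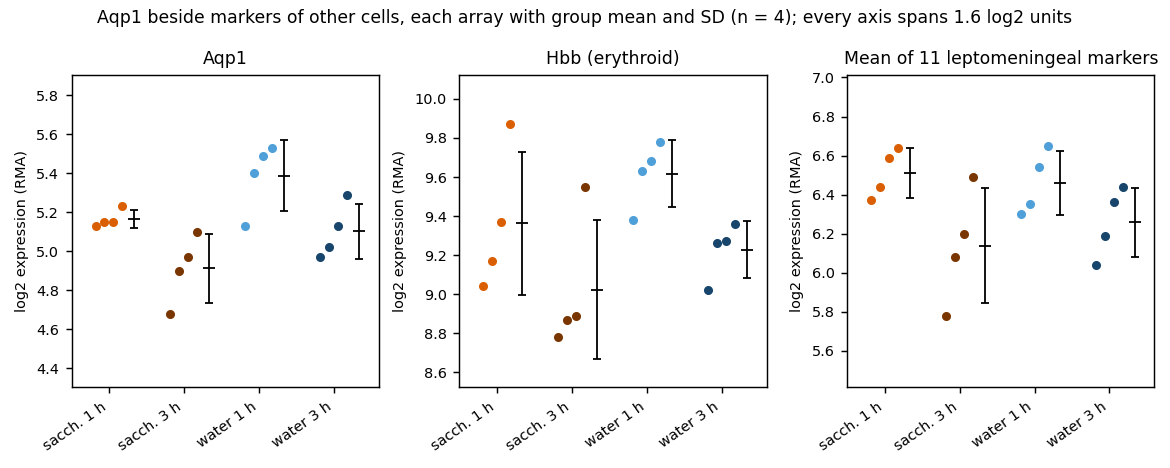
Log2 expression of Aqp1, of the red-cell gene Hbb and of the mean of 11 leptomeningeal markers (vertical axes, all of the same span) in the 4 groups, with 1 point per array and the group mean ± SD (n = 4). All 3 were higher on average at 1 h than at 3 h in both tastes, and Aqp1 and Hbb were lower after saccharin than after water at both times.

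Aqp4 (10803305), the water channel of astrocyte end feet, was bright and nearly flat. Its saccharin 1 h arrays read 9.77 to 9.96, its water 1 h arrays 9.64 to 9.91, its saccharin 3 h arrays 9.84 to 10 and its water 3 h arrays 9.86 to 9.94. The single low array was water 1 h array C374. The difference over time was -0.05 ± 0.04 (SE, adjusted p = 0.717), with an interval of -0.14 to 0.04. The 8 astrocyte markers, which share its cell type, had a median difference of 0.02.

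Of the volume sensors, Wnk1 was measured on 2 probe sets. Its brighter probe set (10865129) read 8.48, 8.51, 8.54 and 8.55 at water 1 h and 8.57, 8.59, 8.62 and 8.64 at water 3 h, so these groups did not overlap, with 3 h the higher. Across saccharin the same probe set overlapped fully, at 8.49, 8.51, 8.60 and 8.70 at 1 h and 8.52, 8.53, 8.63 and 8.66 at 3 h. The difference after water was -0.08 ± 0.05 (SE, adjusted p = 0.790). The dimmer probe set (10865163) had a difference of 0.00 ± 0.07 there (SE), with water 3 h arrays from 5.11 to 5.55 that enclosed the water 1 h arrays at 5.33 to 5.46. The 2 probe sets of Wnk1 therefore did not show the same shift after water. Averaged over tastes the differences were -0.05 and -0.04, with adjusted p-values of 0.678 and 0.83.

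Trpv4 could not be read apart from Trpv1, because the annotation pairs probe set 10759096 with both. That shared probe set was dim at 4.0, with arrays from 3.82 to 4.13, and 33.8% of probe sets were dimmer. Its difference over time was 0.01 ± 0.05 (SE, adjusted p = 0.975, in the fit over all probe sets). Slc6a12, the betaine transporter, is not analysed here.

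**Figure D3:**
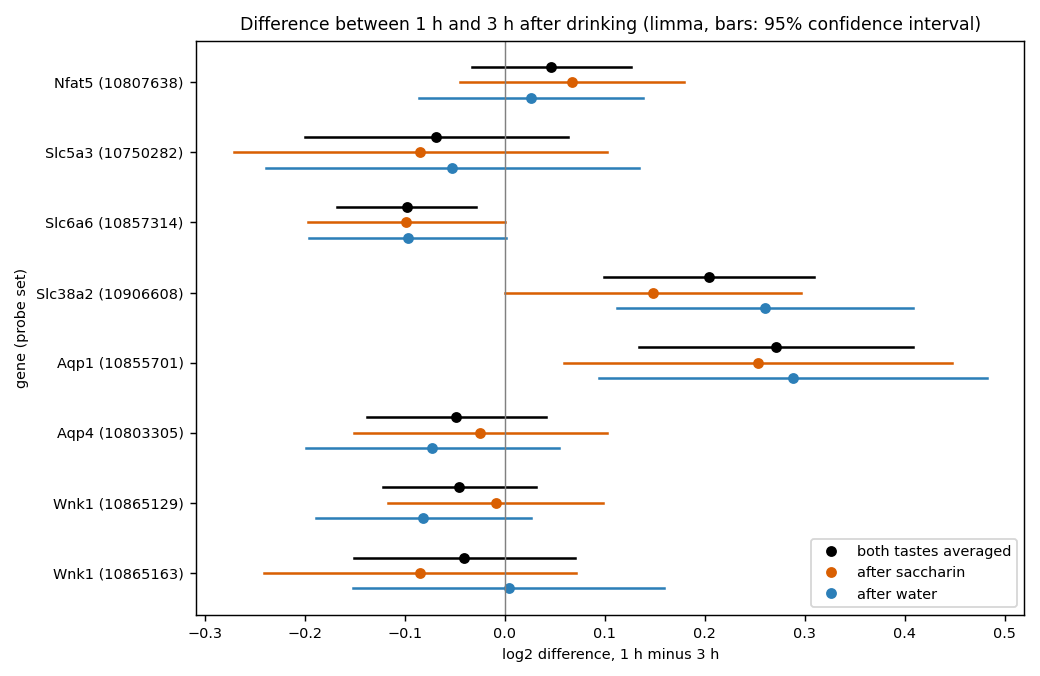
Log2 difference between 1 h and 3 h after drinking (horizontal axis) for each probe set, averaged over both tastes, after saccharin and after water, with 95% confidence intervals from limma. Aqp1 and Slc38a2 lie to the right of 0, Slc6a6 lies to the left, and the other 5 probe sets have averaged intervals that cross 0.

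The comparison of saccharin with water asks whether these genes differed by the taste that was drunk. Saccharin was new to every rat that drank it here. Its newness and its chemical identity therefore cannot be told apart. At 1 h the difference, saccharin minus water, was positive for 7 of 8 probe sets, against 51.8% of all probe sets. The median of the 8 was 0.05, beside 0.00 over all probe sets. Aqp1 was the negative one and the single probe set under an unadjusted p of 0.05, against 3.06% of all probe sets. At 3 h the median was 0.03, with 6 of 8 positive, against 47.7% of all probe sets. At the unadjusted threshold 0 of the 8 passed, against 3.37%. The closest was Slc38a2, higher after saccharin by 0.15 ± 0.07 (SE, unadjusted p = 0.05, adjusted p = 0.999). Averaged over both times, a comparison added after the data were seen, 7 of 8 were positive, against 49.2% of all probe sets, with a median of 0.05. Of the 8, 1, Aqp1, passed the unadjusted threshold, against 3.39% of all probe sets. These sign counts share arrays, and Wnk1 enters them with 2 probe sets. In 0 of the 8 were the groups separate at either time, where 1.50% of all probe sets were at 1 h and 1.91% at 3 h.

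The interaction, which sets the time difference after saccharin against that after water, gave 0 of 8 probe sets at the unadjusted threshold, against 2.96% of all probe sets. The estimates ran from -0.11 for Slc38a2 to 0.07 for the brighter Wnk1 probe set, with intervals reaching up to 0.27 on either side. A difference between the tastes in the time course was not detectable at this precision. For taste at 1 h and at 3 h the intervals reached up to 0.19 on either side.

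**Figure D4:**
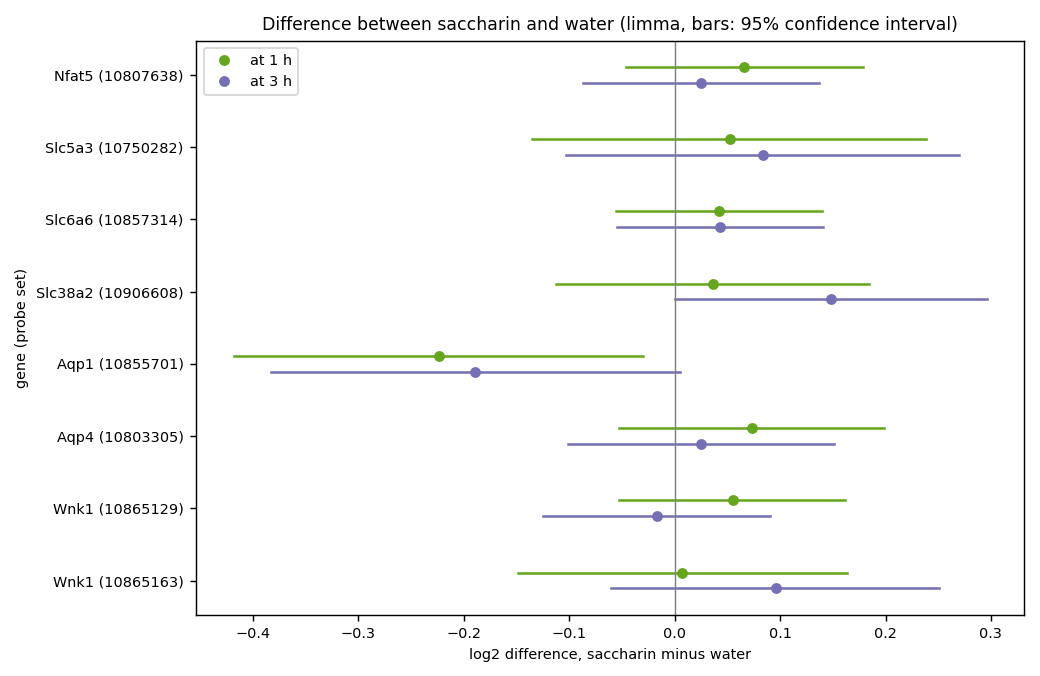
Log2 difference between saccharin and water (horizontal axis) for each probe set at 1 h and at 3 h, with 95% confidence intervals from limma. The Aqp1 points are the ones farthest to the left, at -0.22 and -0.19, and only the 1 h interval of Aqp1 leaves 0 out on that side.

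Genes around this response were read from 8 lists, with 73 of 88 listed genes measured. For time averaged over tastes 2 of the 73 passed the adjusted threshold, both higher at 1 h, and 71 did not. That is 2.74%, beside 1.01% of all probe sets. The lists were chosen with earlier results of these data known, so setting these shares side by side is no test of the lists. Both called genes belong to the 12 genes of tonicity signalling around Nfat5, where 9 differences were positive and the median was 0.03. They were Map2k3 and Map2k6, kinases that activate p38, a kinase upstream of NFAT5 in hypertonic stress and of many other responses. Mapk14, p38 itself, differed by 0.04 (adjusted p = 0.693).

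Map2k3 (10734198) averaged 5.80 ± 0.22 at saccharin 1 h, 5.71 ± 0.13 at water 1 h, 5.50 ± 0.09 at water 3 h and 5.27 ± 0.07 at saccharin 3 h (SD, n = 4). The 1 h level exceeded the 3 h level by 0.38 ± 0.06 (SE, adjusted p = 0.00438). After saccharin the difference was 0.53 ± 0.09 (SE, adjusted p = 0.00613). Map2k3 was the single call among the 73 genes in that comparison, or 1.37%, beside 0.348% of all probe sets. After water the difference was 0.22 (adjusted p = 0.579), and 0 of the 73 genes were called, beside 0.125% of all probe sets. The difference between the tastes did not pass its own test, with an interaction of 0.31 (unadjusted p = 0.0225, adjusted p = 1). Map2k3 was called in 22 of 22 alternatives for time averaged over tastes, with adjusted p-values from 6.02e-04 to 0.0151.

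Map2k6 (10739334) averaged 7.50 ± 0.13 at saccharin 1 h, 7.44 ± 0.08 at water 1 h, 7.24 ± 0.08 at saccharin 3 h and 7.22 ± 0.12 at water 3 h (SD, n = 4). It was higher at 1 h by 0.23 ± 0.05 (SE, adjusted p = 0.0287), in 11 of 22 alternatives past the threshold and in 11 not. The alternatives gave adjusted p-values from 0.0116 to 0.0716, and leaving out any of the arrays C365, C369, C370, C372, C374, C375, C376, C377 or C380 was enough to lose the call.

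In the other 7 lists 0 genes passed in any comparison. At most 1.01% of all probe sets passed in any comparison, so an absence of calls in lists this short says little about these genes. Among 13 measured genes of osmolyte transport and synthesis, 9 differences over time were positive with a median of 0.02. The leading ones were Slc5a11, a second myo-inositol transporter, at 0.19 (adjusted p = 0.106), and Slc6a13, a GABA and taurine transporter, at 0.17 (adjusted p = 0.433). The 7 measured tonicity-responsive chaperones and targets had a median of -0.01, led by the small heat-shock protein gene Hspb1 at -0.12 (adjusted p = 0.504) and by Tsc22d2 at -0.07 (adjusted p = 0.628).

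The 10 other aquaporins had a median of -0.03, and their smallest p-values were those of Mip at -0.07 and Aqp3 at 0.06. Their mean levels ran from 2.90 for Aqp7 to 6.21 for Aqp11. Mip (3.52) and Aqp3 (4.82) were both dimmer than the median probe set, at 5.11. The 5 measured genes of astrocyte end feet, which anchor or surround AQP4, had a median of 0.03, with Mlc1 at -0.06 and Dmd, dystrophin, at 0.05. Of 13 channels for osmosensing and volume regulation, Tmem63c, of a family of osmosensitive channels, was at -0.12 (adjusted p = 0.127). Lrrc8e, a subunit of the volume-regulated anion channel, was at -0.29 (adjusted p = 0.294). The Lrrc8e probe set was dim, at a mean of 3.50, and its water 1 h arrays ran from 2.74 to 3.70. Among 10 genes of WNK kinases and cation-chloride cotransport the median was 0.05, with Wnk4 at 0.08 (adjusted p = 0.397) and Cul3 at 0.07 (adjusted p = 0.564). The 3 measured NFAT relatives that answer to calcineurin were led by Nfatc2 at 0.04 and Nfatc3 at -0.01.

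**Figure D5:**
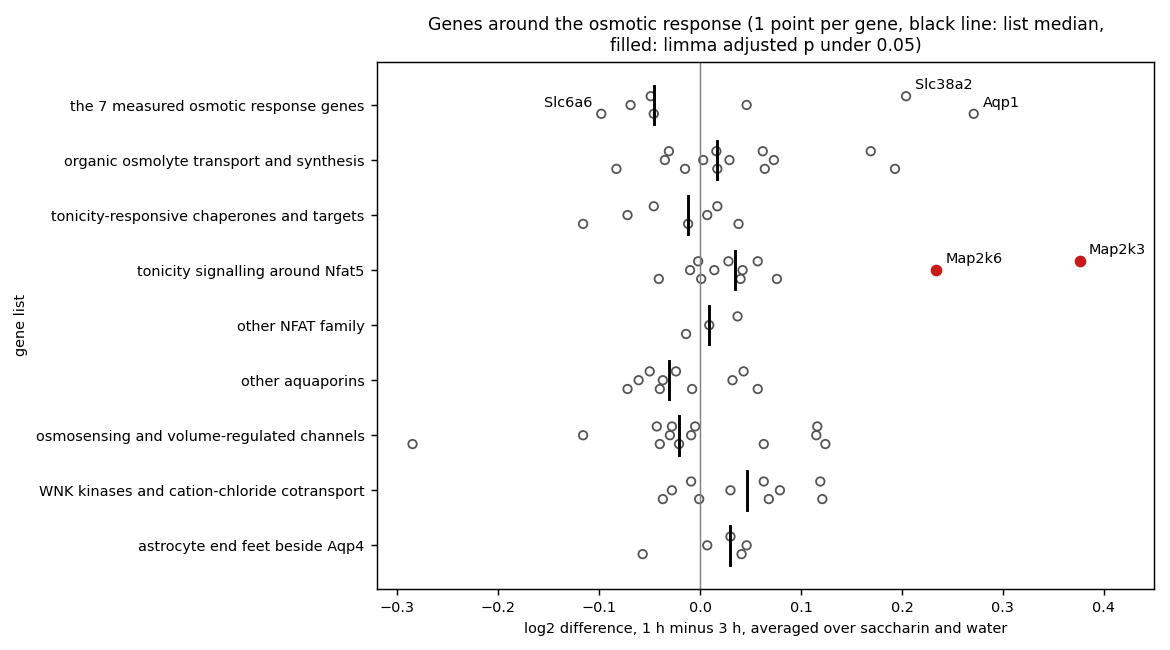
Log2 difference between 1 h and 3 h, averaged over saccharin and water (horizontal axis), for each measured gene of the osmotic response set and of 8 surrounding lists (rows), by the brightest probe set of a gene, with the list median as a black line. Filled points are Map2k3 and Map2k6, which passed an adjusted p of 0.05, and open points did not pass.

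Across the 16 arrays, the genes most like each member in their pattern were found by Pearson correlation among up to 9495 probe sets of other genes brighter than the median probe set. For Slc38a2 these were Pak5 (r = 0.89) and Tmem129 (r = 0.88), and for Slc5a3 they were Katnbl1 and Klhdc2 (both r = 0.87). Nfat5 ran with Lnpep and Mllt3 (both r = 0.84), Aqp4 with Eaf1 (r = 0.84) and Ogfr (r = 0.78), Slc6a6 with Kcnj2 (r = 0.83) and Grin2b (r = 0.80), and Wnk1 with Fchsd2 (r = 0.82) and Rhog (r = 0.76). Aqp1 ran with Cbx8 (r = 0.81) and Shtn1 (r = 0.76). With the group means taken out, r for Aqp1 and Cbx8 was 0.48, whereas it was 0.88 for Slc38a2 and Tmem129 and 0.89 for Slc5a3 and Klhdc2. These are the highest of many values over arrays that share groups, and they are given as a description.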

How the data were processed

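Gene expression was measured on 16 Affymetrix rat gene arrays, 1 per rat, in 4 groups of 4. The authors quantile normalized the probe signals over all arrays and summarised them by RMA, and the deposited values are log2 expression, used as deposited. Probe sets were named through the platform annotation, in which 15209 are paired with 1 gene, 306 with several and 13311 have no entry. Gene levels are not compared between probe sets. A model of 4 group means was fitted over all 15209 in R 4.3.3 (limma 3.58.1), pooling the spread over the 16 arrays, and p-values were adjusted by the Benjamini-Hochberg method with a threshold of 0.05. The number of arrays limits the precision. The fit was tested on simulated data, where recovery was required only for changes of 1 on the log2 scale, larger than any difference of the 8 probe sets. The genes and lists, and the rule for named genes, were chosen with earlier results of these data known. Named are all probe sets of the 9 genes, list genes past the threshold, otherwise the 2 with the smallest p per list for time averaged over tastes (brightest probe set of a gene), and the 2 genes most correlated with each member among probe sets brighter than the median. Outside this rule, Mapk14, Hbb, Alas2 and Col1a1 were named after their values were seen. The alternatives tried were all probe sets, a brightness filter, centring, repeated quantile normalization, a trended robust prior, array weights, only the 8 arrays compared, the mean over probe sets of a gene, and leaving out each array. Saccharin against water averaged over both times was added after seeing the data.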

Additional observations from a re-analysis of the deposited data

Results flagged for a closer look

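In the water 1 h group, array C378 read 6.17 for Slc5a3, well below the other 3 arrays at 6.35 to 6.36, and the gap was 0.916 of the range of the group. Among 32 groups of 4 arrays examined in this way, 1 stood out, where chance gives about 1 in 20. Without that array the Slc5a3 difference between 1 h and 3 h after water was -0.006, against -0.053 with it.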

How the results depend on the processing

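Whether Slc38a2 and Aqp1 passed the threshold for time averaged over tastes depended on the setting. The number of the 8 probe sets called, 0 as reported, was 2 with only probe sets brighter than the median, where fewer probe sets are tested, and 2 with a trended robust prior (both genes each time), 1 with quantile normalization repeated and 1 with array weights (Slc38a2 each time), and 0 to 1 with an array left out. Calls over all probe sets rose as well, from 153 to 218, 218, 168 and 167 under those 4 settings in turn. No other comparison gave a call for these genes under any alternative run. Over all probe sets, the count for time after water, 19 as reported, was 11 with all probe sets tested, 30 with the brightness filter, 3 with only the 8 arrays compared and 8 to 28 with an array left out. Leaving out an array gave 93 to 168 calls for time averaged over tastes, lowest without water 1 h array C376, and 0 to 2 for taste at 3 h. For time after water the count was 8 without C376 and 9 without water 3 h array C367. The cause was not tested.

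Some small differences changed direction. For the dimmer Wnk1 probe set the difference after water was -0.004 with arrays centred, -0.004 with quantile normalization repeated, -0.013 with array weights, -0.039 as the mean over both probe sets and -0.083 to 0.064 with an array left out. The interaction of Slc6a6 was 0.007 with arrays centred, and that of Aqp1 was 0.002 with array weights. With an array left out, interactions ran from -0.033 to 0.029 for Slc6a6, -0.121 to 0.028 for Aqp1, -0.107 to 0.047 for Slc5a3 and -0.012 to 0.087 for Aqp4. Time after water ran from -0.011 to 0.057 for Nfat5 and -0.099 to 0.004 for Slc5a3, and time after saccharin from -0.050 to 0.014 for Aqp4 and -0.052 to 0.020 for the brighter Wnk1 probe set. Taste at 3 h ran from -0.012 to 0.056 for Nfat5, -0.001 to 0.050 for Aqp4 and -0.041 to 0.003 for the brighter Wnk1 probe set, and taste at 1 h from -0.017 to 0.036 for the dimmer one. Taste averaged over times ran from -0.002 to 0.033 for the brighter Wnk1 probe set. No paired analysis was possible because each array number stands in 1 group only.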
